A study of Arabidopsis thaliana with 12 samples.

Results

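Photosystem II and photosystem I are the pigment-protein complexes of the thylakoid membrane that turn absorbed light into electron flow, and light-harvesting proteins are the antenna that feeds them with excitation energy. Their core proteins are made in the plastid, while the antenna and many small subunits are encoded in the nucleus and imported, so that nuclear transcripts and chlorophyll supply meet in the assembled complex. FLU is a negative regulator of chlorophyll synthesis, and flu mutants are known for overaccumulating the chlorophyll precursor protochlorophyllide in darkness.

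The transcripts described here are those of 4 nuclear genes for structural subunits: LHB1B2 (AT2G34420) of the antenna, PSBW (AT2G30570) and PSBY (AT1G67740) of photosystem II, and PSAN (AT5G64040) of photosystem I. They were chosen as named structural genes of the photosystems and their antenna for which a feature of the array listed exactly 1 gene, and each had 1 such feature. The array held 3439 features, of which 692 listed 1 gene, 870 listed several and 1877 had no gene listed in the table used here. Lists of 56 nuclear genes for antenna proteins, photosystem subunits, electron carriers, cytochrome b6f and plastid ATP synthase were matched to the array, and only these 4 were measured alone. A further 6 appeared only among several genes of 1 feature and were given no value.

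All plants were Arabidopsis thaliana of ecotype Landsberg, and all were harvested after 12 h of darkness. The flu mutant, in which the gene FLU is mutated (6 arrays), was set against the wild type (WT, 6 arrays). The samples carry no light-treated group, so each value is a dark level. Neither the tissue nor the array type nor the scaling of the values is stated in the sources used here. Nothing in the labels tells whether separate plants were behind separate arrays, and the p-values then cover only the spread of these arrays, which may be technical. No feature listed FLU alone, and none of 15 marker genes of green tissue, root, seed and pollen was measured alone, so neither genotype nor tissue could be checked on the array.

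Values were linear intensities from 0 to an upper limit of 100. Array medians lay between 0.426 and 0.442 in flu and between 0.443 and 0.491 in WT. Within a genotype, array 1 resembled array 2, array 3 resembled array 4 and array 5 resembled array 6 (Spearman correlation across features of 0.909 to 0.967), and each such set is called a couple. Arrays of different couples within a genotype correlated at 0.78 to 0.942, a range that overlaps the one within couples. The labels do not name couples, and results are therefore given over 12 arrays and over 3 couple means per genotype. No 2 arrays were copies of each other, as at least 3322 features differed between any pair.

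LHB1B2 encodes a chlorophyll a/b-binding protein of the LHCB1 type, the main protein of the antenna trimers of photosystem II. The intensity of its feature was 17.4, 16.7, 19.6, 20.1, 16.8 and 19.9 on flu arrays 1 to 6. On WT arrays 1 to 6 it was 15.8, 15.4, 16.9, 15.9, 17.7 and 23.3. The WT range held the whole flu range. WT array 6 alone lay above the flu arrays, and the other WT arrays lay at or below 17.7. Over couple means the level was 18.4 ± 1.40 in flu and 17.5 ± 2.66 in WT (SD, n = 3 each). LHB1B2 belongs to a family of closely related LHCB1 genes, and whether the feature also bound transcripts of its relatives was not tested.

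PSBW encodes a small membrane-spanning subunit of photosystem II, known in Arabidopsis for a role in holding antenna and core together in supercomplexes. Its intensities on flu arrays 1 to 6 were 18.4, 19.8, 21.2, 20.5, 21.0 and 21.8. On WT arrays 1 to 6 they were 19.4, 20.9, 13.5, 14.8, 15.8 and 16.4. WT arrays 1 and 2 lay within the flu range and the other 4 WT arrays lay below every flu array. Couple means averaged 20.4 ± 1.18 in flu and 16.8 ± 3.07 in WT (SD, n = 3 each).

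PSBY encodes a precursor that is cut into small photosystem II proteins found beside cytochrome b559. Its feature was dimmer, with 1.40, 1.34, 1.55, 1.53, 1.23 and 1.48 on flu arrays 1 to 6. WT arrays 1 to 6 had 1.13, 1.05, 1.80, 1.42, 1.36 and 1.43. The flu values lay inside the WT range, with the lowest WT values in couple 1 and the highest on array 3. The couple means averaged 1.42 ± 0.103 in flu and 1.36 ± 0.264 in WT (SD, n = 3 each).

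PSAN encodes the lumenal subunit N of photosystem I, which takes part in electron transfer from plastocyanin. It had intensities of 5.73, 6.48, 5.97, 6.25, 4.70 and 5.50 on flu arrays 1 to 6. On WT arrays 1 to 6 it had 8.96, 7.89, 4.76, 4.98, 7.25 and 5.45. WT arrays 1, 2 and 5 lay above every flu array, and the other WT arrays lay within the flu range, with WT couple 2 near its low end. Its couple means averaged 5.77 ± 0.582 in flu and 6.55 ± 1.79 in WT (SD, n = 3 each).

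**Figure D1:**
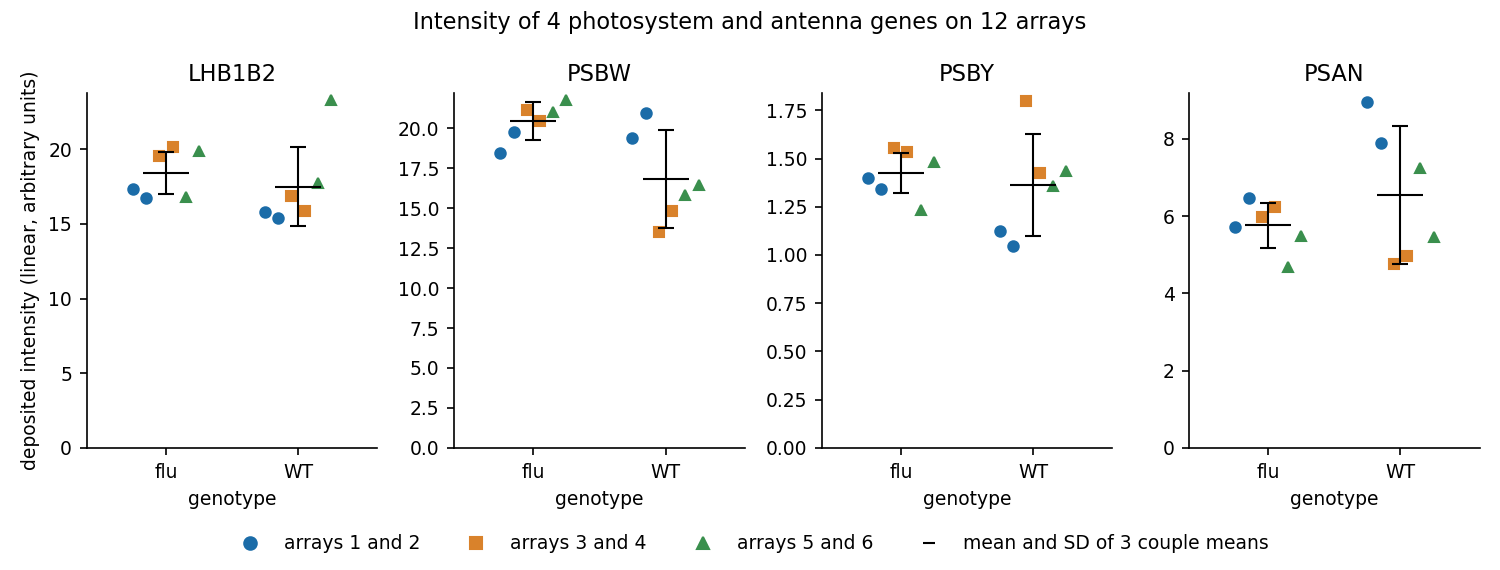
Deposited intensity (linear, arbitrary units) of LHB1B2, PSBW, PSBY and PSAN on 6 flu and 6 WT arrays. Each point is an array, its colour and shape give the couple, and the black line with its bar is the mean and SD of 3 couple means. PSBW of WT couple 1 stands apart from the other WT arrays. PSAN of WT couple 1 lies above WT couple 3, and that of WT couple 2 below it.

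The comparison of the genotypes asks whether dark levels of these photosystem and antenna transcripts differ in flu mutant plants. In RNA from whole samples, fewer cells that express a gene and less of its RNA per cell cannot be told apart. With quantile normalised log2 values over 12 arrays and no pairing of arrays, 0 of the 4 genes passed an adjusted p below 0.05 in limma. At that threshold 52.2% of all 3439 features and 67.1% of the 277 features at least as bright on average as PSBY passed. At an unadjusted p below 0.05, 1 of the 4 passed, LHB1B2. At least 52.2% of all features did so too, as an adjusted p is never below the unadjusted one. The log2 change, flu minus WT, was -0.26 for LHB1B2 (95% interval -0.52 to -0.01, limma adjusted p = 0.078). PSBW stood at 0.05 on this scale (95% interval -0.14 to 0.23, adjusted p = 0.67). PSBY stood at 0.16 (95% interval -0.11 to 0.44, adjusted p = 0.30) and PSAN at -0.06 (95% interval -0.39 to 0.28, adjusted p = 0.78).

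These intervals, like the p-values, cover only the spread of these arrays on that scale, and do not bound a genotype difference between plants. Changes found with other processing, given below, lay outside some of them. As folds of flu over WT the intervals ran from 0.700 to 0.994 for LHB1B2 and from 0.909 to 1.18 for PSBW. For PSBY the interval ran from 0.926 to 1.35, and for PSAN from 0.762 to 1.21. With couples averaged the intervals widened, to folds of 0.640 to 1.09 for LHB1B2, 0.827 to 1.29 for PSBW, 0.832 to 1.51 for PSBY and 0.660 to 1.40 for PSAN. Of the 4, 0 passed (limma, 0 also at an unadjusted p below 0.05). Among all features 34.7% passed the adjusted threshold, and at least that share the unadjusted one. A miss of the threshold does not show that the transcripts were equal. With array number as a block, which pairs same-numbered flu and WT arrays, LHB1B2 passed as lower, at a limma adjusted p of 0.049964, where 31.7% of all features passed as lower. Over couple means LHB1B2 had an adjusted p of 0.24 without a block and 0.18 with couple number as the block.

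The result for the brightest genes depended on the scale. On values as deposited PSBW passed as higher in flu, with a log2 change of 0.30, or 1.23-fold (95% interval 1.05 to 1.44, limma adjusted p = 0.032). It was the 1 member of 4 to pass there, where 18.9% of all features passed as higher, and 4 of 6 same-numbered pairs had the higher value in flu. With array medians subtracted PSBW also passed, at 0.40 on the log2 scale (adjusted p = 0.024), where 22.2% of all features passed as higher. With couples averaged it no longer passed on either scale (adjusted p = 0.20 as deposited and 0.18 with medians subtracted). LHB1B2 had a log2 change of 0.08 as deposited and 0.19 with medians subtracted, opposite in sign to its normalised value, and did not pass.

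PSBW and LHB1B2 were among the brightest features of the array. PSBW was the 17th to 21st brightest feature of the flu arrays and the 16th to 22nd of the WT arrays, and LHB1B2 the 18th to 24th in flu and the 12th to 20th in WT. The 20 brightest features of an array averaged 5.26 on the deposited log2 scale in flu (5.20 to 5.34 over 6 arrays) and 4.95 in WT (4.84 to 5.03). Quantile normalisation gives all arrays the same set of values, and it moved the log2 change of LHB1B2 by -0.35 and that of PSBW by -0.25 from the deposited values. It moved the dimmer PSAN and PSBY by 0.09 and 0.08. The place of PSBW on the array thus overlapped widely between genotypes, while LHB1B2 tended to a lower place in flu, and its normalised value was higher in flu in 1 of 6 same-numbered pairs. The average deposited intensity of the 20 brightest features was higher on every flu array than on any WT array.

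The place of a feature in the table's numbering was examined too. The mean genotype difference varied between 48 strips, each of 6 neighbouring feature numbers that recur at a fixed period. Whether the features of a strip share a difference was not tested. The labels and files do not say what a feature number stands for, and period and width had been chosen on these data. LHB1B2 (feature 2665) and PSBW (feature 3529) lay in strip 13, at the same place of the period, PSAN (feature 85) in strip 15 and PSBY (feature 2030) in strip 3. The mean log2 change of all features was -0.54 in strip 13 (70 features), -0.51 in strip 15 (63 features) and -0.56 in strip 3 (72 features), against a range of -0.67 to 0.61 over the 48 strips. Single features spread widely around these means, with an SD of 0.73 in strip 13, 0.63 in strip 15 and 0.57 in strip 3. All 4 genes therefore lay in strips whose features were lower in flu on average, and each of the 4 stood above its strip's mean.

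PSBY stood highest within its strip, above 63 of 72 features. PSBW lay above 54 and LHB1B2 above 49 of the 70 features of strip 13, and PSAN above 47 of 63. Among features at least as bright as PSBY, means were closer to 0 in strip 13 (-0.23, 12 features) and strip 15 (-0.09, 7 features), but not in strip 3 (-0.57, 6 features). Against these bright neighbours PSBW exceeded 7 of 12, LHB1B2 5 of 12, PSAN 3 of 7 and PSBY 5 of 6, counts that include the gene itself in the total.

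**Figure D2:**
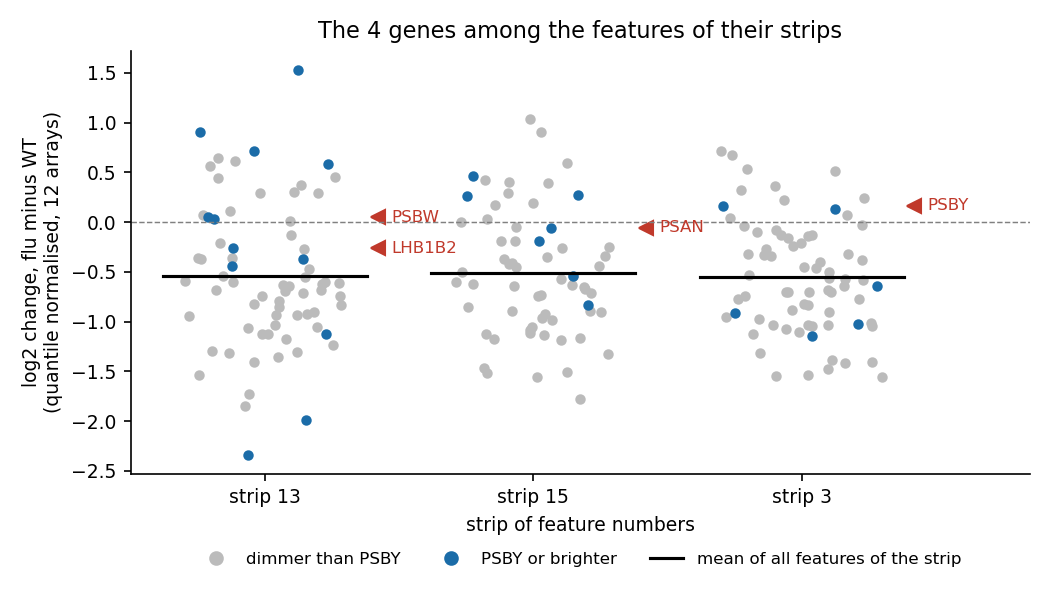
Log2 change, flu minus WT, of every feature in the strips that hold LHB1B2 and PSBW (strip 13), PSAN (strip 15) and PSBY (strip 3), quantile normalised over 12 arrays. Grey points are features dimmer than PSBY, blue points are PSBY or brighter, black lines are strip means, between -0.56 and -0.51, and red triangles mark the 4 genes, all above the mean of their strip.

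Centring the strips, by removing the strip's average deviation within every array, raised each member by the amount that its strip's mean lay below 0. Over 12 arrays 3 of the 4 genes then passed as higher in flu, where 22.8% of all features did. PSBW stood at 0.59 (limma adjusted p = 0.00017), PSBY at 0.72 (0.0048) and PSAN at 0.45 (0.015), while LHB1B2 stood at 0.28 (0.13). With couples averaged too, PSBW alone passed (adjusted p = 0.028), where 13.6% of all features passed as higher, and PSBY (0.068), PSAN (0.13) and LHB1B2 (0.35) did not. With wider strips, of 12 or 24 feature numbers, PSBW stood at 0.48 and 0.49 over couple means and missed the threshold (adjusted p = 0.058 and 0.052). With couple number as a block and the narrow strips PSBW (0.038) and PSBY (0.034) passed, where 17.3% of all features passed as higher. The 12-array call of PSAN with strips centred was lost without flu arrays 1 and 2 (adjusted p = 0.062), without flu arrays 3 and 4 (0.084) and without WT arrays 3 and 4 (0.066).

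Most features behind a strip's mean were dimmer than the 4 genes. The median change of the 277 features at least as bright as PSBY was -0.04 before centring and 0.22 after it. With strip means taken over features above the median intensity and couples averaged, PSBY stood at 0.82 and passed (limma adjusted p = 0.035), where 10.9% of all features passed as higher, and PSBW at 0.49 missed the threshold (0.052). PSBW and LHB1B2 share a strip, so their centred values moved by the same amount and are not separate evidence.

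**Figure D3:**
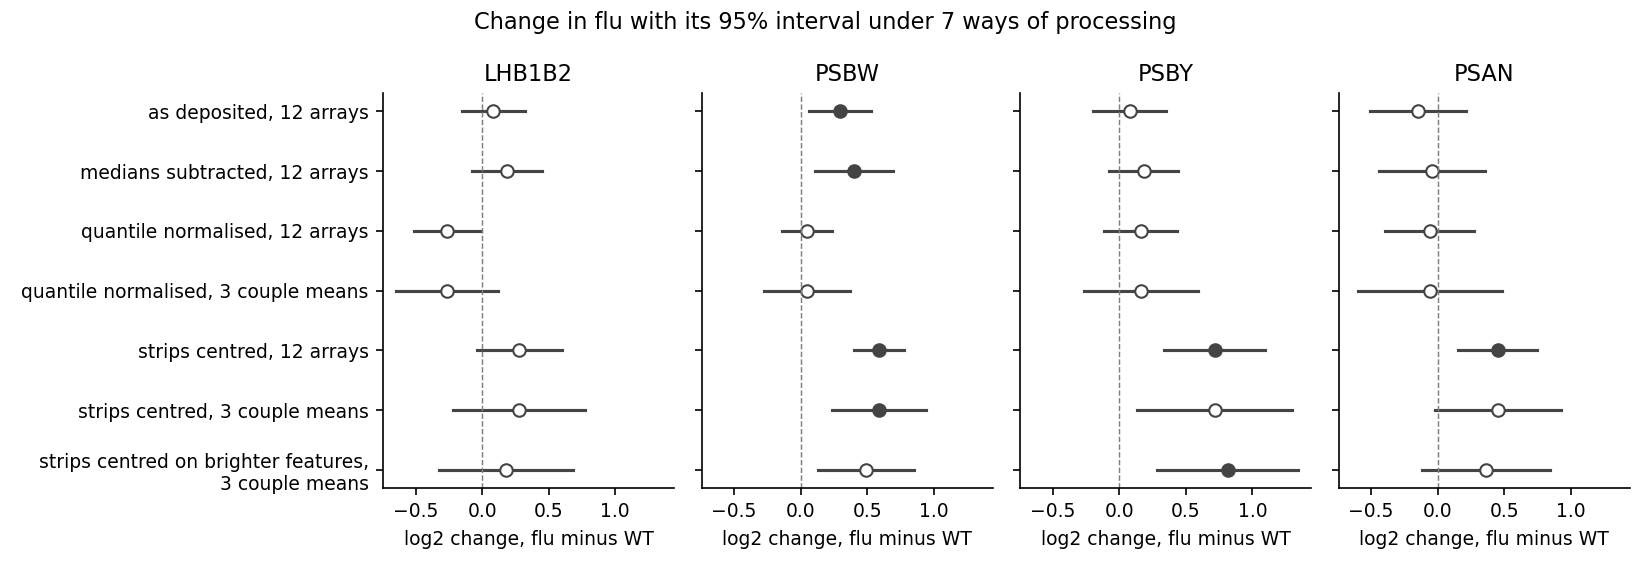
Log2 change, flu minus WT, with its 95% interval for each gene under different ways of processing, filled where the limma adjusted p over all features was below 0.05. LHB1B2 lies below 0 with quantile normalisation alone and above 0 in every other way shown, and PSBW is filled as deposited, with medians subtracted and with strips centred on all features.

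Couple means spread more widely in WT than in flu for all 4 genes. PSAN in couple 1 averaged 6.10 in flu against 8.43 in WT, in couple 2 it averaged 6.11 in flu against 4.87 in WT, and in couple 3 5.10 in flu against 6.35 in WT. Its normalised log2 difference was thus -0.39 in couple 1, 0.43 in couple 2 and -0.22 in couple 3, and the small change over 12 arrays averages couples of opposite sign.

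In PSBW too, couple 1 differed from the others. It averaged 19.1 in flu against 20.2 in WT in couple 1, 20.8 in flu against 14.2 in WT in couple 2, and 21.4 in flu against 16.1 in WT in couple 3. As deposited, the log2 difference was -0.08 in couple 1, 0.56 in couple 2 and 0.41 in couple 3. With strips centred it was positive in all 3 couples, at 0.49, 0.57 and 0.71.

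PSBY went the other way in couple 1, where it averaged 1.37 in flu against 1.09 in WT. In couple 2 it averaged 1.54 in flu against 1.61 in WT and in couple 3 1.36 in flu against 1.40 in WT, so that its deposited log2 differences were 0.34, -0.05 and -0.05. Without WT arrays 3 and 4 its normalised change was 0.29 and passed as higher (limma adjusted p = 0.046). At this setting 54.5% of all features passed in either direction, and the smaller share passing as higher was not counted. Without WT arrays 1 and 2 the change of PSBY was 0.02 (0.92).

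LHB1B2 averaged 17.0 in flu against 15.6 in WT in couple 1, 19.8 in flu against 16.4 in WT in couple 2 and 18.3 in flu against 20.5 in WT in couple 3. Its normalised change was -0.34 without WT arrays 1 and 2 and passed as lower (limma adjusted p = 0.035), where 28.2% of all features passed as lower. Without WT arrays 5 and 6 it was -0.15 (0.20). With strips centred and the same WT arrays 5 and 6 left out, LHB1B2 instead passed as higher, at 0.42 (adjusted p = 0.026), where 21.6% of all features passed as higher.

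On the normalised log2 scale the SD over 6 arrays was 0.136 in flu and 0.245 in WT for LHB1B2, and 0.0950 in flu and 0.166 in WT for PSBW. For PSBY it was 0.127 in flu and 0.278 in WT, and for PSAN 0.162 in flu and 0.345 in WT. The WT spread was the larger for all 4, as it was for 68.5% of all features, where the median SD was 0.241 in flu and 0.354 in WT. The difference in spread was not tested.

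Ratios between the 4 genes within an array do not depend on a factor common to all its features. They do depend on a scale that differs between bright and dim features. On the deposited log2 scale the 20 brightest features averaged 5.26 in flu and 4.95 in WT, while array medians averaged -1.20 in flu and -1.10 in WT. Of the 6 ratios of deposited intensities, 1 separated the genotypes, that of PSBW over PSAN. Its log2 value was 1.69, 1.61, 1.83, 1.71, 2.16 and 1.98 on flu arrays 1 to 6 and 1.11, 1.41, 1.51, 1.57, 1.12 and 1.59 on WT arrays 1 to 6. All 6 flu arrays lay above all WT arrays. How often ratios of other features on the array separate the genotypes in this way was not counted. Of all single features 52.2% passed over 12 arrays (quantile normalised), so the separation is not shown to be particular to these genes. The mean was 1.83 ± 0.208 in flu and 1.39 ± 0.217 in WT (SD, n = 6 each), a difference of 0.44 (two-sided exact permutation p = 0.0022, the smallest that 12 unpaired arrays allow, adjusted p = 0.013 over 6 ratios).

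The difference of this ratio was positive in every couple, at 0.39, 0.23 and 0.72. Over 3 couple means per genotype the exact permutation p was 0.10, the smallest that this number allows. The ratio of PSBW over PSAN did not separate the genotypes after quantile normalisation, where the difference was 0.11 (exact permutation p = 0.38, n = 6 each). That normalisation moved the log2 change of PSBW by -0.25 and that of PSAN by 0.09. On the deposited scale the ratio compares the features of these 2 genes alone and does not show whether either transcript changed. PSBY over PSAN, the other ratio of a photosystem II gene to the same photosystem I gene, differed by 0.23 and did not pass (exact permutation p = 0.42, n = 6 each), with a difference of -0.38 in couple 2.

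The other 5 deposited ratios differed between genotypes by -0.01 to 0.23 on the log2 scale, with adjusted exact permutation p of 0.50 to 0.97. After quantile normalisation the ratio of PSBY over LHB1B2 passed instead, with a mean of -3.47 ± 0.0925 in flu and -3.89 ± 0.257 in WT (SD, n = 6 each), a difference of 0.42 (exact permutation p = 0.0065, adjusted p = 0.039 over 6 ratios). That ratio was higher in flu in 6 of 6 same-numbered pairs, but its deposited difference was -0.01, and with strips centred the adjusted exact permutation p was 0.12. These p-values treat the arrays of a genotype as separate, although they resemble each other in couples. Over couple means the normalised ratio was not tested, and 3 per genotype allow no exact permutation p below 0.10.

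**Figure D4:**
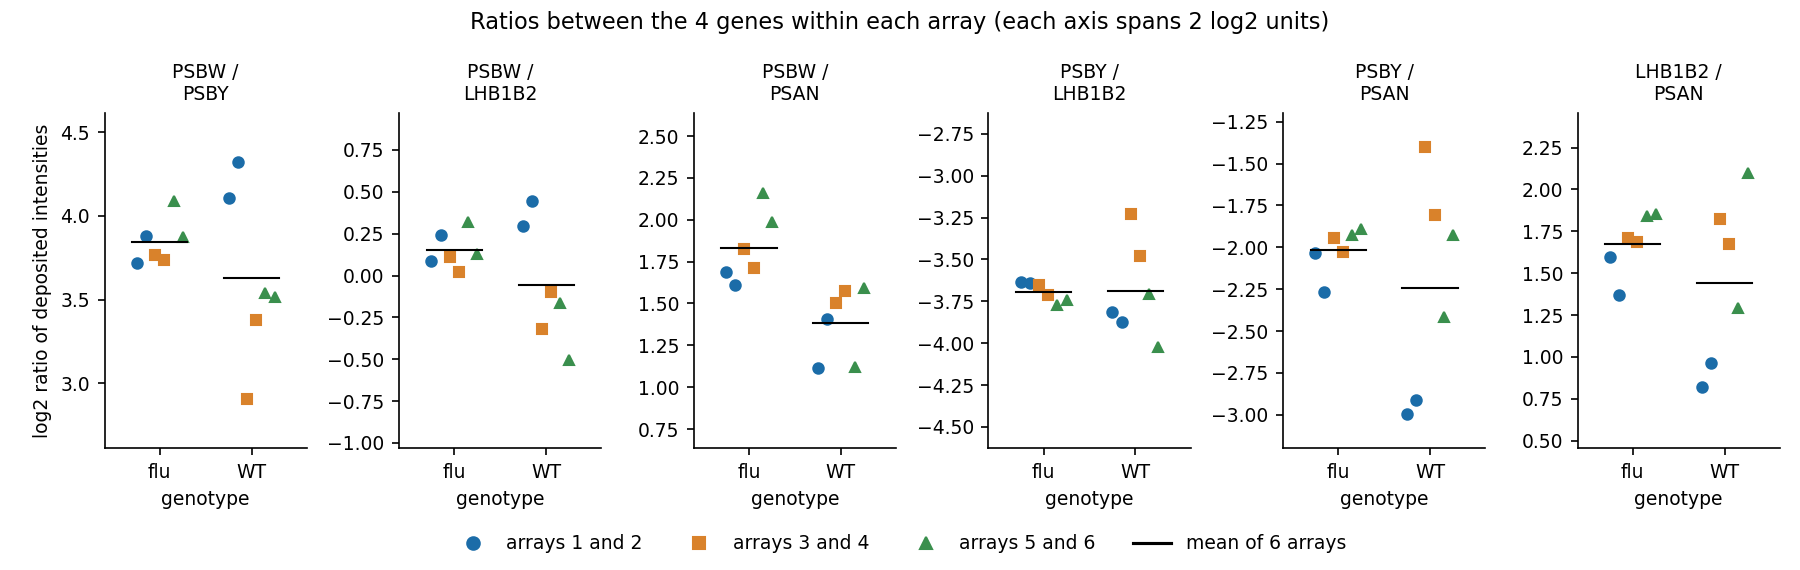
Log2 ratio of the deposited intensities of 2 genes within each array, for the 6 pairs among PSBW, PSBY, LHB1B2 and PSAN, with the mean of 6 arrays as a line and the couple as colour and shape. PSBW over PSAN is the pair in which every flu array (1.61 to 2.16) lies above every WT array (1.11 to 1.59).

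The likeness of profiles was measured as the mean absolute difference between mean-centred normalised log2 values over 12 arrays, among 627 other features with 1 gene and a value above 0 on every array. Arrays share couples, strips and scaling, and the measure favours genes of similar small spread, so it is a description. The feature most like PSBW was AT3G58830, at 0.108, followed by AT2G05120 at 0.109 and HEMA3, a glutamyl-tRNA reductase of tetrapyrrole synthesis, at 0.118, where the median over all features compared was 0.432. Most like PSAN were CML30, a calmodulin-like protein, at 0.116, AT2G39360 at 0.117 and Z-ISO, an isomerase of carotenoid synthesis, at 0.120.

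LHB1B2 was most like AT2G47830, at 0.104, then AT5G19540 at 0.149 and AT1G51110 at 0.153. PSBY was most like AT1G12100 at 0.149, AT3G51320 at 0.154 and AT3G58570 at 0.156. None of these 12 features lay in strip 3, 13 or 15. Of the 12, 1 passed over 12 arrays, AT2G47830 with a log2 change of -0.33 (limma adjusted p = 0.018), where 52.2% of all features passed. The 12 were picked for likeness to members that did not pass on the same arrays, so a low count was built in.

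Among themselves the members were closest in the pair PSBW and PSAN, whose profiles differed by 0.170 on average on that scale. PSBY and PSAN were the pair least alike, at 0.321. Neither was among the 3 features most like the other, and no member was among the 3 nearest of any other member.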

How the data were processed

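Intensities of 3439 features on 12 arrays were taken from the table deposited by the authors. The deposited intensity is linear, and what background correction, scaling and upper limit it carries is not stated in the sources used here. Genes came from the platform table, with symbols updated through RefSeq (TAIR10.1), which matched 690 of 692 features with 1 gene. A floor at the 1st percentile of all values above 0 (0.0236) was set, and floored values were taken to log2 and quantile normalised. The 4 members lay above that floor on every array. Genotypes were compared (flu minus WT, no block) by the moderated two-sided test of limma 3.58.1, run in R 4.3.3, and p-values were adjusted over all features after Benjamini and Hochberg, with 0.05 as threshold. The fit was tested on simulated data with independent errors, without couples, number pairs or strips. Its error rate on arrays that share these was therefore not tested. Alternatives changed the scaling, floor, filter, block, couples, strips and arrays used.

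The members, gene lists, couples and strips were chosen with earlier results of these data known. The ratios between genes were added after values were seen. Named were the 4 members, every measured gene of the lists and the 3 features most like each member.

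As a check of the replicate numbers, each array's deviation from its genotype's mean was set against those of the other genotype. Same-numbered arrays had correlations of 0.368 to 0.539 across features, above every other pairing for 12 of 12 arrays. The main fit and the permutation tests did not use this pairing, which entered the fits with a block and the comparisons of same-numbered pairs. The number of arrays limits the precision.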

Additional observations from a re-analysis of the deposited data

Results flagged for a closer look

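Single arrays were compared with the other 5 of their genotype by Dixon's gap rule in 16 sets of 6 values, the 4 genes in 2 genotypes on 2 scales. Chance flags about 1 in 20 sets, and 2 were flagged. LHB1B2 had a deposited intensity of 23.3 on WT array 6, where the next highest WT array had 17.7. PSBW stood at 4.03 on the normalised log2 scale on flu array 1, where the others lay at 4.18 to 4.27.

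Differences of opposite sign between couples, in both same-numbered pairs of each, were seen for 2 genes on the normalised log2 scale. PSAN had a difference, flu minus WT, of -0.39 in couple 1 and 0.43 in couple 2. PSBW had -0.25 in couple 1, 0.16 in couple 2 and 0.22 in couple 3. The difference between couples was not tested.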

How the results depend on the processing

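The count of 1796 features passing over 12 arrays was 1084 when only features above the median intensity were tested. That set is smaller, so the 1084 cannot be read as a fall in the share passing. Out of all 3439 features the count was 1193 over couple means and 956 over couple means with centred strips. It was 1177 when the replicate block joined both. It was 970, 985 and 977 with couples averaged and strips of 12 numbers, strips of 24 numbers or brighter features used for centring, and 1080 with deposited values. Leaving out arrays or couples gave 1542 to 1875, or 1359 to 1705 with strips centred.

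LHB1B2 turned from -0.26 to 0.19 with medians subtracted, 0.085 as deposited, 0.28 with strips centred (adjusted p = 0.13, 0.35 with couples averaged and 0.25 with the block too), 0.17 and 0.18 with the wider strips, 0.18 with brighter features, and 0.78 (adjusted p = 0.023) with deposited values, couples averaged and strips centred. The replicate block left it at -0.26 (0.049964). With arrays or couples left out it stood at -0.34 to -0.15, or 0.12 to 0.42 with strips centred, where it passed as higher without WT arrays 5 and 6 (0.026).

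PSAN turned from -0.06 to 0.45 with strips centred (0.015 over 12 arrays, 0.13 with couples averaged, with or without the block), 0.40 and 0.38 with the wider strips, 0.36 with brighter features and 0.51 with deposited values and centring. It ran from -0.24 to 0.13 with arrays or couples left out, or 0.30 to 0.57 with strips centred, where the call was lost without flu arrays 1 and 2, flu arrays 3 and 4 or WT arrays 3 and 4 (0.062 to 0.084).

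PSBW passed at 0.40 with medians subtracted, 0.30 as deposited, 0.59 with strips centred (with couples averaged and with the block too) and 0.995 with deposited values, couples averaged and strips centred. It ran from -0.0096 to 0.14 with arrays or couples left out, turning below 0 without WT arrays 3 and 4 or 5 and 6, or 0.55 to 0.62 with strips centred. With couples averaged it missed the threshold at 0.48 and 0.49 with the wider strips (0.058 and 0.052) and at 0.49 with brighter features (0.052). PSBY passed at 0.72 with strips centred over 12 arrays and with couples averaged and the block, at 0.82 with brighter features and at 0.83 with deposited values and centring. It ran from 0.017 to 0.29 with arrays or couples left out, passing without WT arrays 3 and 4 (0.046), or 0.51 to 0.96 with strips centred. It missed the threshold at 0.74 and 0.67 with couples averaged and the wider strips (0.062 and 0.061). With deposited values, couples averaged and strips centred, 3 of the 4 genes passed as higher. There 1080 of all 3439 features passed in either direction, and the share passing as higher was not counted. Apart from the changes that scaling and strip means make by construction, the cause was not tested. The wider strips, the centring on features above the median intensity, the joint changes of scaling with couples and the couples left out with strips centred were chosen after seeing the data. Apart from LHB1B2, and PSBY with strips centred, the block changed no call. Signal over background was not analysed here.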
